A study of Rattus norvegicus with 10 samples.

Results

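The cytosolic ribosomal protein genes encode the protein subunits of the ribosome that translates nuclear mRNAs. They were chosen by symbol alone: every Rpl or Rps symbol followed by a digit, with Rpsa, Rplp0, Rplp1 and Rplp2, and without the S6 kinases, pseudogenes and ribosomal protein-like copies. The rule found 49 probesets of 43 genes, 29 of the large and 14 of the small subunit, among 14217 genes with a symbol of their own. Where a gene had several probesets, the one with the brightest mean over the 10 arrays stands for it.

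RNA came from pancreatic islets of male Wistar rats that were 7 weeks old and caged singly. For 10 days, the rats behind 5 biological replicates received a cafeteria diet with 66% of calories from fat, and those behind 5 others received standard chow with 8%. The labels name no transgene or drug and do not say whether islets of several rats were pooled into one sample. The groups follow the array titles. On all 10 samples the separate diet characteristic names the opposite diet, and if it were right every sign below would turn.

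Each ribosome joins a small subunit, which holds the mRNA and checks codon against anticodon, to a large subunit, which forms the peptide bond and threads the new chain through an exit tunnel. The subunit proteins are mostly needed in equal numbers, and mammalian cells match them largely in translation: most of these mRNAs start with a pyrimidine stretch, the 5′ terminal oligopyrimidine or TOP motif, through which mTOR signalling sets their loading onto ribosomes. An mRNA array does not see that step. Islet β-cells translate large amounts of proinsulin, and several of these genes serve as reference genes in PCR.

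The start regions of the genes on which the results below turn differ in their pyrimidine stretch. RefSeq start regions of assembly GRCr8 were found for 38 of the 43 genes. Shown are Rpl24, Rpl13a and Rps16, lower in the cafeteria group before correction or close to it, Rpl4, the steadiest member, Rps3a and Rpl37a, among the members on the higher side, and Rplp0, a common PCR reference. Each line gives 40 bases before and 20 after the annotated start, 5′ to 3′ on the gene's strand, with the longest run of C and T in capitals.
Rpl24, chr11:58128386-58128445, minus strand: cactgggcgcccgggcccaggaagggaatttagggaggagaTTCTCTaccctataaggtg
Rpl13a, chr1:104748894-104748953, minus strand: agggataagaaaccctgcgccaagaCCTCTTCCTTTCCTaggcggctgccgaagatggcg
Rps16, chr1:92770618-92770677, plus strand: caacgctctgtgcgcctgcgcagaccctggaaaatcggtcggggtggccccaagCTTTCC
Rpl4, chr8:73566437-73566496, plus strand: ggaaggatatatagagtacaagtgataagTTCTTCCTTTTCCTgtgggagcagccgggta
Rps3a, chr2:173827023-173827082, minus strand: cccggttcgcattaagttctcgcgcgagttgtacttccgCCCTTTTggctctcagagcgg
Rpl37a, chr9:81748051-81748110, plus strand: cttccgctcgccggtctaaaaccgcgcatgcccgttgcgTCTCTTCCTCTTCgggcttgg
Rplp0, chr12:46718371-46718430, minus strand: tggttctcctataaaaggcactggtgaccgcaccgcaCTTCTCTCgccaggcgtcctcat

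The run was 14 bases long in Rpl13a and in Rpl4, 13 in Rpl37a and 8 in Rplp0, and it lay across or within 20 bases of the annotated start. Within this 60-base window a run of at least 8 bases was present in 29 of the 38 members (76.3%) and in 23.9% of 33469 RefSeq start regions. The letters CTTTC stood on the sense strand within 20 bases of the start in 18 of 38 members (47.4%), against 4.97% of all start regions of the same 40 bases. With both strands searched the shares were 47.4% and 9.87%. In the 300-base regions, CTTCCG or its complement, which overlaps the core of ETS factor sites, was found in 47.4% of members and 16.6% of all. CTTTCC, on either strand, was found in 47.4% and 26.4%, and TATAAA in 13.2% and 14.2%. CTTTCC contains CTTTC, so these counts overlap. The longest run was 6 bases in Rpl24 and 7 in Rps3a, both under 8. In Rps16 the 6 bases lay 15 to 20 bases into the transcript. The window ends there, so the full length of that run is not seen. A match or its absence is a description of these letters at the annotated start.

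No ribosomal protein gene passed the test between the diets. Of the 43 genes, 40 were bright enough to be tested, and under the cafeteria diet 21 read higher and 19 lower, where 51.4% of all 18625 tested probesets were higher and 48.6% lower. With limma and adjustment over all tested probesets, 0 of 40 members passed at 0.05, as did 0% of all probesets, and the members' adjusted p ran from 0.412 to 0.994. At an unadjusted p under 0.05 there was 1 member (2.50%), Rpl24, against 10.4% of all tested probesets (5.51% higher and 4.91% lower). Rpl24 was lower. The median log2 difference was 0.015 over the members and 0.0056 over all tested probesets. Bright probesets as a whole leaned upward. There were 466 tested probesets with signals at least as high as the dimmest of the 38 bright members described next. This set includes the 38 and was dimmer at its median, with a signal of 10380 against 13923 for the 38. Of the 466, 305 were higher and 161 lower, with a median log2 difference of 0.053. Of the 38, 19 were higher and 19 lower, with a median of 0.0019. At an unadjusted p under 0.05 stood 11.4% of the 466 and 2.63% of the 38. The members' share depends on the variance model. With a trended and robust variance Rpl13a, Rpl23a and Rps16 also came under this threshold, and the share of all probesets under it was not computed. The members' split changed with the scaling of the values. After quantile normalization 12 of 40 members were higher and 28 lower, where 49.1% of all tested probesets were higher. The median was −0.065, against −0.0041 for all probesets. After median centring of each array 17 members were higher and 23 lower, where 42.9% of all tested probesets were higher. The median was −0.023, against −0.032 for all. Splits of the 466 bright probesets under these scalings were not computed, so whether the shift is particular to the members is not known.

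The members were measured tightly, so the intervals are informative. Mean signals of 38 genes lay between 6787 and 24678, a level chosen after the values were seen to separate them from the 5 dim members, all under 1000. For these 38 the log2 differences ran from −0.23 to 0.13, which is 0.854-fold to 1.09-fold. Their 95% confidence intervals reached from −0.42 at the lowest to 0.31 at the highest, or 0.748-fold to 1.24-fold. All 38 intervals lay within 0.5 of 0 on the log2 scale, as did those of 94.0% of the 466 bright probesets and 68.3% of all tested probesets. An absolute difference above 0.25 was seen in 0 of the 38, against 6.22% of the 466 and 17.8% of all tested probesets. These intervals are for single genes and are not corrected for their number. The highest signal on any array was between 36433 and 49016, and whether bright probes were saturated was not tested, so the intervals hold for the signal.

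**Figure D1:**
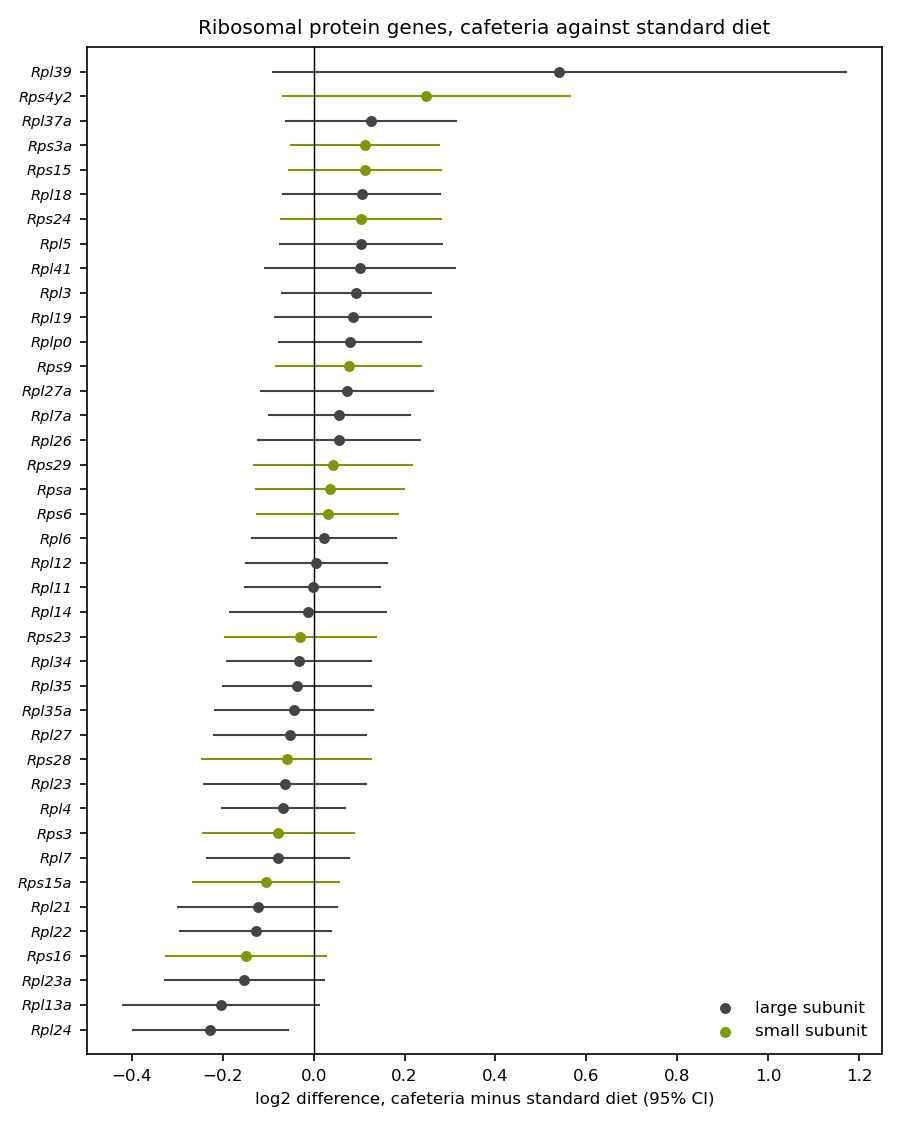
Log2 difference of each of the 40 tested ribosomal protein genes, cafeteria minus standard diet (points), with its 95% confidence interval (lines); dark points are large and green points small subunit genes. Apart from the dim genes Rpl39 and Rps4y2, all points lie between −0.23 and 0.13, and the interval of Rpl24 is the one that does not reach 0.

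Rpl24 had the lowest p. Its product sits on the large subunit where the 2 subunits meet, and in mice a mutation of the gene causes the belly spot and tail phenotype. Its signals were 7693, 8396, 8065, 6934 and 7193 in cafeteria replicates 1 to 5, against 9126, 9433, 8653, 9047 and 8486 in standard replicates 1 to 5. The groups did not overlap, although cafeteria replicate 2 lay just under standard replicate 5. Means were 7656 ± 603 in the cafeteria group and 8949 ± 380 in the standard group (SD, n = 5 each). The log2 difference was −0.23 (SE 0.077, 95% confidence interval −0.40 to −0.06), a 1.17-fold lower level. Its limma p was 0.0134 before and 0.412 after adjustment. Among the 40 members, groups failed to overlap in 2, both lower in the cafeteria group (5.00%), against 2.44% of all tested probesets in either direction, 0.988% higher and 1.45% lower. Among the 466 bright probesets, which include the 38 bright members, the share was 6.22%, with 18 higher and 11 lower. The members' share was not above it. After quantile normalization Rpl11 joined these, making 3, and after median centring there were 0. Shares of all or of bright probesets under these scalings were not computed, so these counts have no background.

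Rpl4 was the other gene without overlap, and the steadiest member. It encodes a protein that lines the exit tunnel. Signals were 13415, 13834, 14012, 13749 and 13560.1 in the cafeteria arrays, against 14160.2, 14840.4, 14222, 14335 and 14253 in the standard arrays. Every cafeteria array was lower than every standard array, yet the difference was small, at −0.067 on the log2 scale. The spread within groups was 0.026 (SD, log2). The SE was 0.0164 from the gene's own arrays and 0.0615 after limma moved its variance toward that of all probesets, so that the moderated p was 0.302 (adjusted p = 0.704).

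Other parts of the large subunit showed the same small differences. Of the 5 genes of the stalk, the peptidyl transferase centre and the 5S particle, 4 were higher and 1 lower, with a median of 0.080. Rplp0, which anchors the stalk that recruits elongation factors, had signals of 11412, 11919, 12162, 11903 and 13512 in the cafeteria group and 11599.6, 11632, 11306, 11939 and 11079 in the standard group. Cafeteria replicate 5 stood above the other 9 arrays, which otherwise mixed. The log2 difference of Rplp0 was 0.08 (SE 0.071, adjusted p = 0.695). Rpl3, near the peptide bond forming site, differed by 0.09 (SE 0.074). Rpl5 and Rpl11 carry the 5S RNA into the ribosome and, when free, bind Mdm2, the regulator of p53. Rpl5 differed by 0.10 (SE 0.081) and Rpl11 by −0.0024 (SE 0.068).

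Of the 5 exit tunnel genes 2 were higher and 3 lower, with a median of −0.036. Rpl23a, a docking point for the signal recognition particle at the tunnel's mouth, had signals of 7634, 8649, 8092, 7841 and 8296 in the cafeteria group and 9193, 7769.9, 9443, 9294 and 9401 in the standard group. Standard replicate 2 alone lay among the cafeteria arrays. The difference was −0.15 (SE 0.080, adjusted p = 0.518), and −0.20 without standard replicate 2 (adjusted p = 0.385). With the GAPDH ratio described below as a covariate it was −0.03. Rpl26, the brightest member, differed by 0.06 (SE 0.081). Rpl39 was dim, at 168, 408, 276, 205 and 149 in the cafeteria group and 82.8, 144, 180.5, 155 and 229 in the standard group. Its 2 groups overlapped widely, and its difference of 0.54 had an SE of 0.287 (adjusted p = 0.521).

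Rpl13a, which in human cells also leaves the ribosome to silence inflammatory mRNAs, had signals of 11157, 10243, 12071, 8962 and 9016 in the cafeteria group and 11566, 10884, 12434.5, 11654 and 12390.1 in the standard group. Cafeteria replicates 4 and 5 were far below the rest, replicate 2 was below the standard range, and replicates 1 and 3 lay within it. The difference was −0.20 (SE 0.098, adjusted p = 0.486), with the largest within-group spread of the 38 bright members (0.145). Rpl22 (−0.13, SE 0.076) and Rpl21 (−0.12, SE 0.079) were the next large subunit genes on the lower side. On the higher side stood Rpl37a (0.13, SE 0.085) and Rpl18 (0.11, SE 0.079). None passed (adjusted p from 0.552 to 0.638 for these 4 genes).

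**Figure D2:**
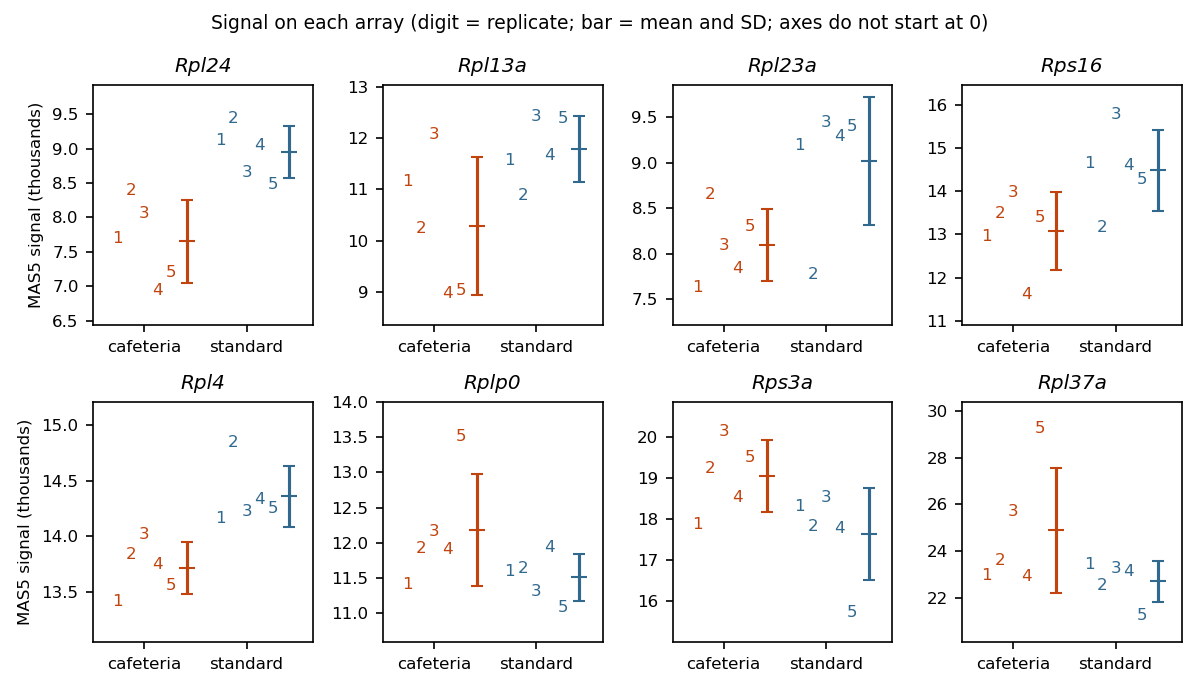
Deposited signal (in units of 1000, linear axes that do not start at 0) of 8 ribosomal protein genes on each array, with digits giving the replicate, and the mean and SD of each diet beside them. For Rpl24 and Rpl4 all cafeteria arrays lie below all standard arrays, while in Rplp0 and Rpl37a cafeteria replicate 5 lies above all others.

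In the small subunit, 8 of 13 tested genes were higher and 5 lower, with a median of 0.036, against 13 higher and 14 lower of 27 large subunit genes with a median of −0.0024. Of the 6 genes along the mRNA path and the decoding site, 2 were higher and 4 lower (median −0.044). Rps16, whose tail reaches the peptidyl site, read 12946, 13480.2, 13962, 11599 and 13393 in the cafeteria group and 14654, 13153, 15774, 14598 and 14269.9 in the standard group. Only standard replicate 2 fell within the cafeteria range, and the difference was −0.15 (SE 0.080, adjusted p = 0.522). Rps15, close to the decoding site, differed by 0.11 (SE 0.076), Rps3, at the mRNA entry, by −0.08 (SE 0.076) and Rps23, in the decoding centre, by −0.03 (SE 0.075).

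Rps6, the substrate of the S6 kinases downstream of mTOR, had a log2 difference of 0.03 (SE 0.071, 95% confidence interval −0.12 to 0.19). Rps3a, near the exit of the mRNA, read 17874, 19246, 20142, 18541 and 19512 in the cafeteria group and 18314, 17825, 18548, 17788 and 15731 in the standard group. The groups overlapped, with standard replicate 5 far below the rest, and the difference was 0.11 (SE 0.074, adjusted p = 0.590). Rps4y2 was a dim member, with mean signals of 560 ± 105 in the cafeteria group and 467 ± 67.7 in the standard group (SD, n = 5 each) and a difference of 0.25 (SE 0.144, adjusted p = 0.544).

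Rpsa, the ribosomal protein also known as the laminin receptor precursor, was read by 3 probesets that disagreed. The brightest gave a log2 difference of 0.04 (SE 0.074) and the next brightest gave −0.22 (SE 0.081, unadjusted p = 0.0225, adjusted p = 0.427). The dimmest gave −0.15 (SE 0.085). By their names, these last 2 hold probes that can match more than 1 transcript. Rpl7 also disagreed, at −0.08 (SE 0.071) from its bright probeset and 0.27 (SE 0.196) from a dim one with a mean signal of 258. Rpl28, Rpl30 and Rps13 were not tested. Their mean signals of 77.1, 58.6 and 64.7 are so far under those of the other members that the probesets may not report these genes, which was not tested. A further 33 probesets carry a ribosomal protein symbol together with pseudogene, like or other symbols, so they were not named. Of these 17 were higher and 16 lower, with a median of 0.00039, where 51.4% of all tested probesets were higher. Of the 33, 1 had an unadjusted p under 0.05, against 10.4% of all tested probesets.

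The mean of the bright members varied more between arrays within a diet than between the diets. In such a mean, genes higher and genes lower in the cafeteria group offset each other. The mean log2 signal of the 38 bright members was 13.69, 13.77, 13.82, 13.65 and 13.82 in cafeteria replicates 1 to 5. In standard replicates 1 to 5 it was 13.78, 13.74, 13.76, 13.79 and 13.69. Group means were 13.75 ± 0.076 for the cafeteria and 13.75 ± 0.037 for the standard diet (SD, n = 5 each), a difference of −0.0055, while single arrays spanned 0.167. The summed signal of the 43 genes made up 2.43% to 2.69% of all signal on cafeteria arrays and 2.48% to 2.62% on standard ones.

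A few arrays set the extremes. Cafeteria replicate 5 was highest for 17 of the 38 genes, against 16.4% of all tested probesets. It was lowest for 2 of the 38, against 18.9% of all tested probesets. Standard replicate 5 was lowest for 15 of 38 and cafeteria replicate 4 for 14 of 38, whereas these arrays were lowest for 13.3% and 7.23% of all tested probesets. Of the 19 genes that were higher in the cafeteria group, 16 peaked in cafeteria replicate 5 and 15 had their lowest value in standard replicate 5. Of the 19 that were lower, 12 had their lowest value in cafeteria replicate 4. Sorting genes by the direction of their difference favours such extremes in advance, and matching shares of all probesets were not computed. Of the 38, Rpl41, which encodes a very short peptide, rose furthest above its mean in cafeteria replicate 5. It read 18745 there and between 13548 and 15547 in the other 9 arrays. Without cafeteria replicate 5 the median over the 40 members was −0.00068, with 20 higher, and without standard replicate 5 it was −0.0042, with 20 higher.

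**Figure D3:**
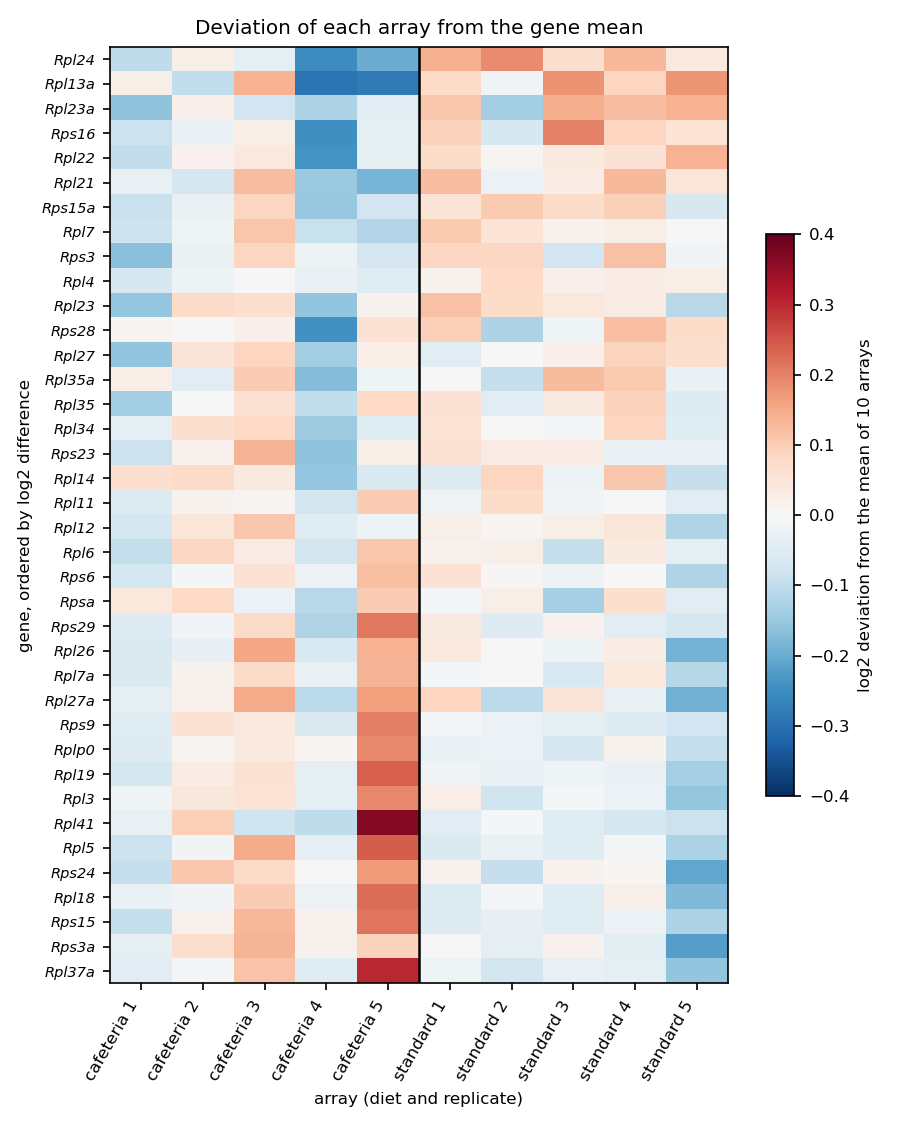
Deviation of each array from the gene's mean over 10 arrays (colour, log2) for the 38 bright ribosomal protein genes, ordered by their log2 difference, with the cafeteria arrays left of the line and the standard arrays right of it. Cafeteria replicate 5 is highest for 17 genes, most of them at the bottom, cafeteria replicate 4 lowest for 14 and standard replicate 5 lowest for 15.

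Whole islets hold several cell types, and in such samples fewer cells of a type and less RNA per cell cannot be told apart. The 5 hormone genes Ins1, Ins2, Gcg, Sst and Ppy had signals of at least 14918 on every array. The mean log2 signal of 18 acinar markers, of the enzyme-secreting cells around the islets, was 9.06 ± 0.787 in the cafeteria and 9.43 ± 0.483 in the standard group (SD, n = 5 each). Cafeteria replicate 4 and standard replicate 5, which held most of the lowest ribosomal protein values, had the highest acinar means of their groups. Other arrays went the other way. Acinar means were also high in cafeteria replicate 5 (9.70) and standard replicate 1 (9.69), with ribosomal protein means of 13.82 and 13.78. Cafeteria replicate 1 had a low acinar mean (8.75) and a low ribosomal protein mean (13.69). The mean of 12 islet markers was 13.55 ± 0.090 in the cafeteria and 13.45 ± 0.076 in the standard group (SD, n = 5 each). It was highest in cafeteria replicates 5 (13.67) and 3 (13.62), the arrays with the highest ribosomal protein means, and lowest in standard replicate 5 (13.33). Cafeteria replicate 4, with the lowest ribosomal protein mean, lay amid the other arrays at 13.51. The mean of 20 immune markers was 8.26 ± 0.605 in the cafeteria and 8.90 ± 0.663 in the standard group (SD, n = 5 each). Its arrays ranged from 7.86 to 9.32 in the cafeteria and from 7.92 to 9.67 in the standard group. The mean of 16 proliferation markers was 8.10 to 8.70 in the cafeteria and 7.98 to 8.08 in the standard group, without overlap. It was highest in cafeteria replicate 5. The ratio of 3′ to 5′ GAPDH control signal, which rises with degraded RNA, was 1.01 ± 0.063 in the cafeteria and 1.16 ± 0.103 in the standard group (SD, n = 5 each; exact two-sided permutation p = 0.0238, adjusted p = 0.0476 over 2 ratios). The same ratio for β-actin was 2.65 ± 0.310 in the cafeteria and 2.81 ± 0.257 in the standard group (SD, n = 5 each). Its exact two-sided permutation p was 0.405, with an adjusted p of 0.405. The part of these measures in the ribosomal protein values was not tested further than by covariates. With the GAPDH ratio or the acinar mean as a covariate 0 members passed. The count was also 0 without a covariate, so it cannot show their part. Rpl24 moved from −0.23 to −0.29 with the GAPDH ratio and to −0.27 with the acinar mean. Rpl13a moved from −0.20 to −0.26 with the acinar mean, and Rpl23a from −0.15 to −0.03 with the GAPDH ratio.

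Between arrays of one diet the members varied little. The median within-group SD was 0.088 on the log2 scale for the 38 bright genes, 0.199 for all tested probesets and 0.101 for the 466 tested probesets at least as bright as the dimmest of the 38. Of the 38 genes, 30 had an SD below that last median, which comes from a set that includes them and is dimmer at its median. The lowest spreads were those of Rpl4 (0.026), Rpl11 (0.058) and Rps6 (0.070), and the highest among all 40 those of the dim genes Rpl39 (0.523) and Rps4y2 (0.243).

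**Figure D4:**
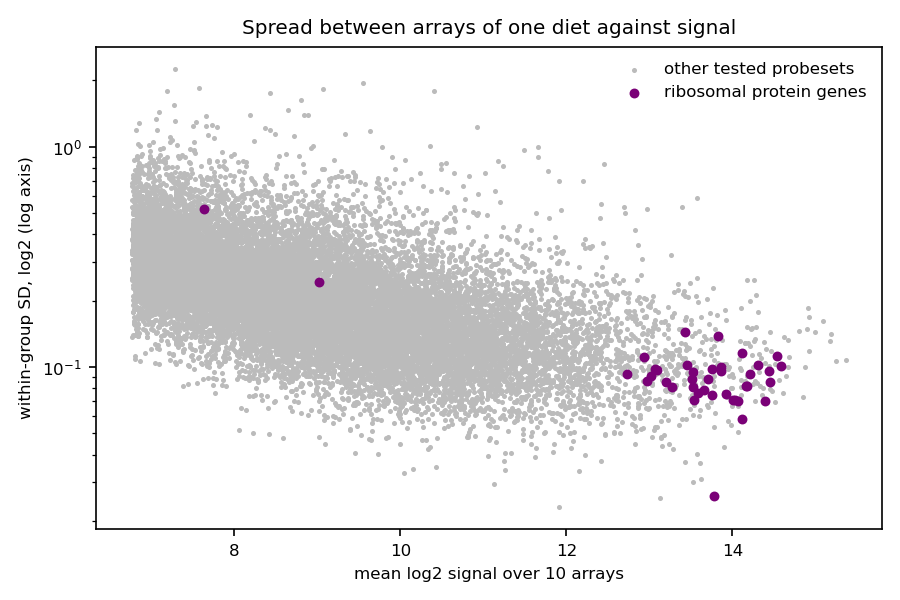
Within-group SD (log2 scale, logarithmic axis) against mean log2 signal for the 40 tested ribosomal protein genes (purple) and the other tested probesets (grey). Apart from Rpl39 and Rps4y2 the members lie at the bright end with a median SD of 0.088, against 0.199 for all tested probesets.

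Other genes of translation were described from lists of their own. In the list of elongation factors and other genes with TOP mRNAs, 15 of 25 listed genes were measured, and 4 were higher and 11 lower in the cafeteria group with a median log2 difference of −0.072. None passed, and 1 had an unadjusted p under 0.05 (6.67%, against 10.4% of all tested probesets). That was Eif3f, a subunit of the initiation factor that binds the small subunit, at 3145 ± 181 in the cafeteria and 3559 ± 186 in the standard group (SD, n = 5 each; log2 difference −0.18, SE 0.073, adjusted p = 0.448). Eef1b2 (−0.14, SE 0.076) and Eef1g (−0.10, SE 0.066) belong to the exchange factor of Eef1a1, the factor that delivers aminoacyl-tRNA, and Eef1a1 itself was at 0.11 (SE 0.082). Eef2, which moves the ribosome along the mRNA, was at 0.09 (SE 0.100). Rack1, a signalling scaffold bound to the small subunit, was at −0.07 (SE 0.067). With quantile normalization 12 of the 15 were lower, where 49.1% of all tested probesets were higher.

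The list of initiation factors took every Eif symbol with a digit. It therefore also holds regulators of these factors, among them the kinase genes Eif2ak3 and Eif2ak4 and the repressor gene Eif4ebp1. Of these 49 genes 28 were higher and 21 lower, with a median of 0.012. At an unadjusted p under 0.05 stood 4 on the higher and 1 on the lower side, with 0 after adjustment, a share of 10.2% against 10.4% of all tested probesets, and 4 of the 49 are also in the list above. Eif4g1, the scaffold that joins the cap-binding protein to the ribosome, was at 0.36 (SE 0.143), and the helicase gene Eif4a1 at 0.25 (SE 0.099), each with an adjusted p of 0.444. Among subunits of the factor that holds Eif3f, Eif3d was at 0.25 (SE 0.096) and Eif3l at −0.13 (SE 0.079). Of 66 tested ribosome biogenesis genes 35 were higher and 31 lower (median 0.017), with 4 under the unadjusted (6.06%, against 10.4% of all) and 0 under the adjusted threshold, 3 of the 4 on the higher side. Nop58, a core protein of the particles that methylate ribosomal RNA, was at 0.23 (SE 0.095), and Ubtf, an activator of ribosomal RNA transcription, at −0.32 (SE 0.130). Bysl, needed to mature the small subunit, was at 0.26 (SE 0.111), and Fbl, the methyltransferase of the Nop58 particles, at −0.13 (SE 0.069). Of 73 mitochondrial ribosomal protein genes 40 were higher and 33 lower (median 0.014), with 1 each way under the unadjusted (2.74%, against 10.4% of all) and 0 under the adjusted threshold. These were Mrps31 (0.33, SE 0.093, adjusted p = 0.398) and Mrps18c (−0.28, SE 0.115, adjusted p = 0.448), followed by Mrps34 (0.20, SE 0.093) and Mrps5 (−0.21, SE 0.128). With median centring, the medians of the last 3 lists were −0.025, −0.020 and −0.023, against −0.032 for all probesets.

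**Figure D5:**
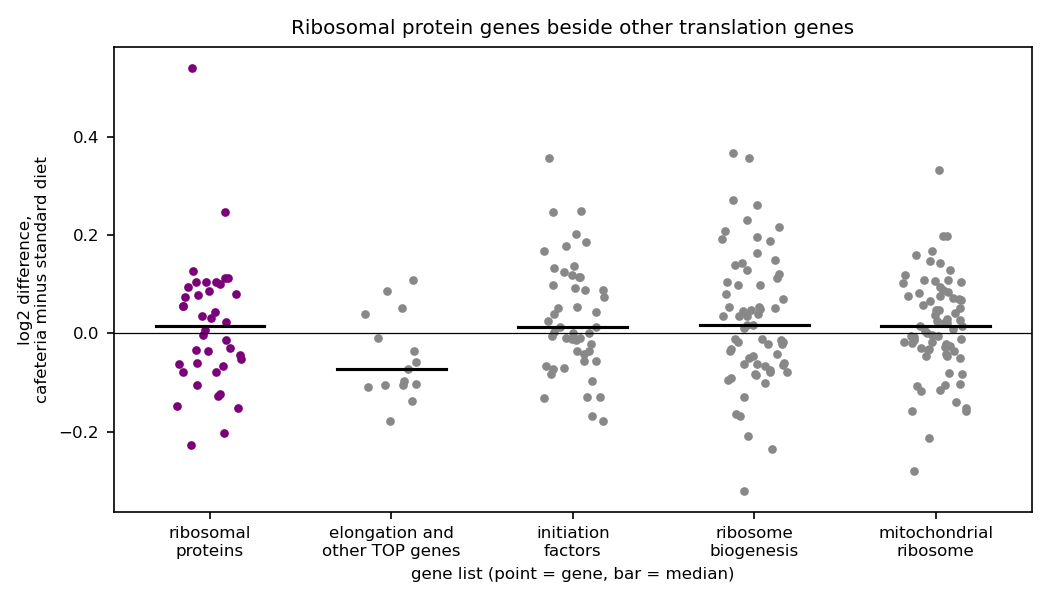
Log2 difference, cafeteria minus standard diet, of each gene in 5 lists (points) with the list median (bar). The medians lie between 0.012 and 0.017 except for elongation and other TOP genes, at −0.072, and no gene of any list passed the test.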

How the data were processed

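Islet RNA was hybridized to 1-colour Affymetrix arrays. The deposited values are linear signal intensity values, 1 per probeset. Per the submitters' processing notes they come from MAS5, whose version and settings are not given in the sources used here. Trimmed means (2% at each end) were 500.1 to 500.2 on every array, so arrays had been scaled alike, which hides any change in total RNA. There were no detection calls and no genome build.

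Gene symbols came from the platform annotation, and 41 of 43 members were found by entrez ID in RefSeq GRCr8. Signals were transformed as log2(value + 14.15), the 10th percentile of all values. Probesets with a mean above the 40th percentile of 31042 non-control probesets were tested (18625) with limma 3.58.1 in R 4.3.3 (lmFit, eBayes; 8 residual and 3.11 prior degrees of freedom), cafeteria minus standard, with Benjamini-Hochberg adjustment over all of them. The code was tested on simulated data. The number of arrays limits the precision.

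The members, lists and role groups were chosen with earlier results of these data known. Named were the 6 members of lowest p each way, members with textbook roles, the 3 brightest and 3 dimmest, those whose probesets disagreed, and the 3 with most and least spread; from other lists, the 2 of lowest p each way. Rpl3, Rpl41, Rack1, Eef1g, Eif4a1 and the genes with an array far from its group were named after their values were seen. Alternatives were other pseudocounts, filters, scalings, variance models, covariates, probeset choices, the replicate number as a block, and leaving out each array.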

Additional observations from a re-analysis of the deposited data

Results flagged for a closer look

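In 92 sets of 5 arrays (43 genes, the mean of the 38 bright members and 2 RNA quality ratios in each diet), Dixon's test put the highest or lowest array apart in 9. Chance alone does so in about 1 of 20 sets, here 4.6. Standard replicate 5 was the lowest of its group in 5 of the 9, all log2 signals: Rpl26 at 14.40 (others 14.57 to 14.63), Rpl19 at 14.07 (others 14.18 to 14.20), Rps3a at 13.94 (others 14.12 to 14.18), Rpl12 at 13.91 (others 14.04 to 14.08) and Rps15 at 13.39 (others 13.46 to 13.49). Standard replicate 2 was highest for Rpl4 at 13.86 (others 13.79 to 13.81) and lowest for Rpl23a at 12.93 (others 13.17 to 13.21). Cafeteria replicate 4 was lowest for Rps28 at 12.69 (others 12.94 to 12.99), and cafeteria replicate 3 for the untested dim gene Rpl28 at 5.89 (others 6.33 to 6.49). Values of several genes on 1 array are not independent of each other.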

How the results depend on the processing

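The counts and the median were recomputed in 24 other ways, 10 of them leaving out 1 array and 1 chosen after seeing the data. The 22 tested named genes have 22 to 24 values each, since Rpl39, Rps4y2 and Rpl13a drop out of some. The count of members past the adjusted threshold was 0 under all 24, and the count over all probesets was 0 except without standard replicate 2, where it was 1 (range 0 to 1 over left-out arrays). The members' median of 0.015 was −0.065 with quantile normalization and between −0.0042 and 0.032 when single arrays were left out. With the 38 bright members alone, the added setting, it was 0.0019. With the replicate block it stayed 0.015, with 1 member under the unadjusted threshold, 0 calls and Rpl24 at an adjusted p of 0.350. Whether arrays of the same number form pairs is not known. Correlations of their deviations were 0.00328, 0.296, 0.251, −0.00174 and 0.144 for replicates 1 to 5. Those of differently numbered arrays are not given beside them, so pairing cannot be judged from these values. The count of members at an unadjusted p under 0.05, 1 as reported, was 2 with no filter on low signals, a filter at the 70th percentile, median centring, array weights or the acinar covariate. It was 4 with quantile normalization or the trended and robust variance, in both cases Rpl24, Rpl13a, Rpl23a and Rps16. Without single arrays it was 1 to 3: 3 without cafeteria replicate 1, and 2 without cafeteria replicate 3 or 5 or standard replicate 2 or 5. Matching shares of all tested probesets under these settings were not computed, so these counts have no background. In the reported fit the shares were 2.50% of members and 10.4% of all tested probesets. Rpl24 lay between −0.29 and −0.19 throughout (adjusted p at least 0.239). Of 524 values for the named genes, 513 kept their direction, 11 changed sign and 0 passed. The cause of these shifts was not tested. The intervals of the dim members Rpl39 and Rps4y2 were the widest, and without detection calls their signal over background is unknown.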
